A study of Mus musculus with 8 samples.

Results

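The muscarinic and nicotinic acetylcholine receptor genes Chrm1, Chrm2, Chrm3, Chrm4, Chrm5, Chrna3, Chrna4, Chrna5, Chrna7 and Chrnb2 were looked up by gene symbol among the 14353 genes with values in the mouse ventral pallidum (VP). Of these 10 genes, 8 had values. Chrna5 and Chrna7 were not analysed here, so nothing is said of their levels. All 8 genes with values passed the filter of over 1 CPM (read counts scaled to library size) in at least 3 libraries, as 14249 genes did. The question addressed was which of these receptors had more ribosome-bound mRNA in glutamatergic neurons of the VP (VPGlu neurons) than was found in VP tissue as a whole.

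Every animal carried VGluT2-Cre, homozygous, and Rpl22 RiboTag, heterozygous, a Cre-dependent HA tag on a ribosomal protein, so both fractions shared 1 genotype and no animal was treated. The tag is carried by any cell in which Cre acted at that time or earlier in life, so the fraction stands for cells with a history of vGluT2 expression. TRAP (translating ribosome affinity purification) was mRNA pulled down with the tagged ribosomes, and INPUT was mRNA of the tissue lysate, although the methods speak of an unbound fraction where they describe sequencing. The 8 libraries came from 4 pools, each of which gave 1 TRAP and 1 INPUT library. Values of single libraries are given for pool VP1.6 first, then for VP2.2 and VP2.6, with VP2.11 last. The pools held 38 mice in all (15 male, 23 female), 7 to 11 to a pool, aged 9 to 12 weeks in VP1.6 and 10 to 16 weeks in the other pools.

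Acetylcholine acts through receptors of separate kinds. Muscarinic receptors are G-protein-coupled: those encoded by Chrm1, Chrm3 and Chrm5 couple mainly to Gq, phospholipase C and calcium release, and those encoded by Chrm2 and Chrm4 couple mainly to Gi, which lowers cyclic AMP and opens potassium channels. Nicotinic receptors are pentameric cation channels built from subunits, and in the brain the most common forms combine the alpha4 subunit (Chrna4) with beta2 (Chrnb2) or hold only alpha7 (Chrna7). The VP lies among the cholinergic neurons of the basal forebrain and holds some of them.

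The TRAP label was checked against marker genes. The 5 genes listed as markers of vGluT2 neurons were Slc17a6, Slc17a7, Tbr1, Neurod1 and Neurod6. All were higher in TRAP, with summed levels of 297 to 425 CPM against 49.2 to 102 CPM in INPUT. Slc17a7 encodes vGluT1, so the list is not particular to vGluT2 neurons. Log2 differences were 3.16 for Tbr1, 2.84 for Neurod1, 2.49 for Neurod6 and 1.45 for Slc17a7. Which cells these came from was not tested. Slc17a6, which encodes vGluT2, had means of 143 CPM in TRAP (SD 13.6, n = 4) and 25.9 CPM in INPUT (SD 10.3), a log2 difference of 2.55, and its difference was smallest in VP2.11 (1.84). The 9 markers of striatal projection neurons summed to 625 to 1052 CPM in TRAP and 1500 to 2264 CPM in INPUT. Striatal markers were thus not near 0 in any TRAP library. At an adjusted p under 0.05, 7 of these 9 were lower and all 5 listed vGluT2 markers were higher in TRAP. At the same threshold 23.2% of all genes tested were higher and 24.8% lower. Each library was also set against the mean of the remaining 3 of its fraction across genes, and TRAP VP2.11 stood apart most (r = 0.939, against 0.972 to 0.976 in the rest of TRAP and 0.974 to 0.990 in INPUT).

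Of the 8 receptor genes, 4 passed an adjusted p under 0.05 with the higher level in TRAP, namely Chrna4, Chrm2, Chrnb2 and Chrm5. None passed with the lower level. Of all genes tested 47.9% passed, 23.2% higher and 24.8% lower in TRAP. With the pool as a block, which compares each TRAP library with the INPUT library of the same animals, Chrna4, Chrm2 and Chrnb2 were called and Chrm5 was not (adjusted p = 0.244), while 32.2% of all genes were called, 15.4% higher and 16.8% lower. The same 4 genes were the ones whose libraries did not overlap between fractions, as was so for 47.7% of all genes, and they were higher in all 4 pools, as were 23.3% of all genes. TRAP and INPUT of a pool deviated in opposite directions across genes, so p-values without the block may be too small. The receptors' median log2 difference was 0.49, and that of all genes was -0.05. In tissue libraries a difference between fractions cannot tell apart a change in the number of cells that express a gene from a change in mRNA per cell. TRAP holds ribosome-bound mRNA after a pulldown and INPUT holds mRNA of the lysate. Differences in ribosome binding or in the pulldown therefore cannot be told apart from these either.

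**Figure D1:**
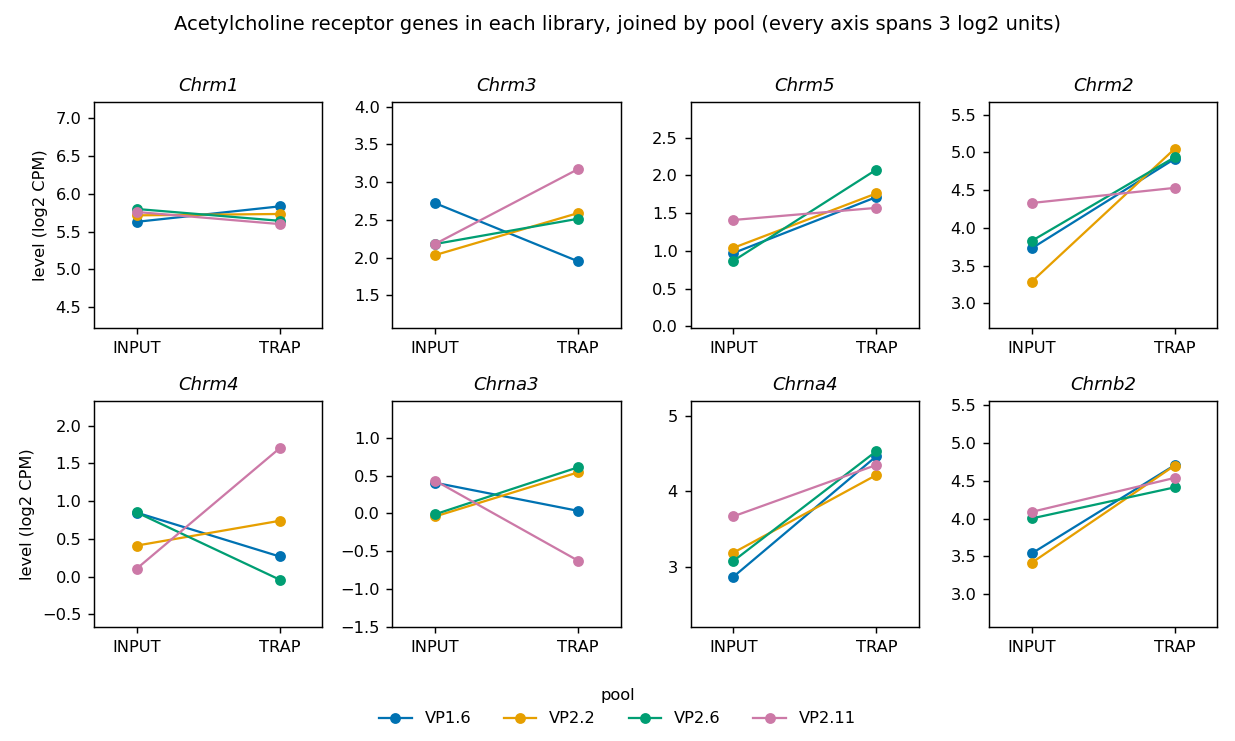
Level of each receptor gene in log2 CPM (vertical axis, 3 log2 units in every panel) in the INPUT and TRAP library of each pool, with 1 line per pool. Lines for Chrm2, Chrna4, Chrnb2 and Chrm5 rise in all 4 pools, Chrm1 lies between 5.60 and 5.83 in every library, and the lines of Chrm3, Chrm4 and Chrna3 cross.

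Among the muscarinic receptors that couple to Gq, Chrm1 had the highest level of any receptor gene and did not differ detectably between the fractions. Chrm1, the M1 receptor of many forebrain principal neurons, is on chromosome 19 (ENSMUSG00000032773, chr19:8663789-8683587, plus strand, GRCm38). In TRAP it stood at 57.1, 53.2, 50.0 and 48.5 CPM in the 4 pools, and in INPUT at 49.5, 52.6, 55.7 and 54.2 CPM. The ranges overlapped, and TRAP was the higher library in 2 of 4 pools. The means were 52.2 ± 3.80 CPM in TRAP and 53.0 ± 2.65 CPM in INPUT (SD, n = 4), with a log2 difference of -0.02 (adjusted p = 0.881, or 0.943 with the pool as a block). The 95% interval with the block ran from -0.48 to 0.43. An RNA gene on the opposite strand, Gm22820, covers 5.07% of the exon bases of Chrm1.

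Chrm3, encoding the M3 receptor (ENSMUSG00000046159, chr13:9875486-10360847, minus strand), was present at lower levels and varied more between pools. Its TRAP levels were 3.86, 6.01, 5.71 and 9.00 CPM, and its INPUT levels were 6.59, 4.09, 4.53 and 4.53 CPM. VP1.6 was lower in TRAP, by 0.77 on the log2 scale, and the other pools were higher by 0.33 to 0.99, so the fractions overlapped. The log2 difference was 0.28 (95% interval with the block -0.53 to 1.08, adjusted p = 0.434, or 0.605 with the block), and it ran from 0.040 without VP2.11 to 0.63 without VP1.6, not called in either.

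Chrm5, the M5 receptor gene (ENSMUSG00000074939, chr2:112479171-112480769, minus strand), was higher in TRAP in all 4 pools, but its call was lost with the pool as a block. TRAP stood at 3.28, 3.39, 4.22 and 2.97 CPM, and INPUT at 1.96, 2.06, 1.83 and 2.66 CPM. The lowest TRAP library thus lay above the highest INPUT library, and the gap was smallest in VP2.11. The log2 difference was 0.71 (SE 0.25, adjusted p = 0.040; with the block SE 0.45, adjusted p = 0.244). These levels rested on about 44 and 57 reads in the TRAP libraries of VP2.2 and VP2.6, and on about 81 and 50 reads in their INPUT libraries. Without VP1.6, VP2.2 or VP2.6 the adjusted p without the block was 0.120, 0.101 and 0.212, and the difference 0.70, 0.70 and 0.54.

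The annotated models of Chrm5 and Chrm4 hold a single coding exon each, of 1599 and 1440 bases, with no untranslated bases, in GENCODE release M21, whose transcript numbers equal those in the deposited table for 14349 of 14353 genes. The methods name an Ensembl release for the alignment, and equal transcript numbers do not show which gene models were counted. RefSeq places Chrm5 at chr2:112478733-112536361 and Chrm4 at chr2:91922189-91929835, both wider than the GENCODE models. The other 6 receptor genes with values had between 2976 and 6031 exon bases outside the coding sequence. The first and last 30 bases of the 2 short models are shown because they mark where counting would begin and end under that annotation, with the start and stop codons in capitals.
Chrm5 first: ATGgaaggggagtcttatcacaatgaaacc
Chrm5 last: tattggcaaggcaacagcaagctacccTGA
Chrm4 first: ATGgcgaacttcacacctgtcaatggcagc
Chrm4 last: cagtatcggaacatcggcacagccaggTAG
Reads from untranslated parts of these mRNAs would not be counted under such models. Whether this lowered the CPM of Chrm4 and Chrm5 was not tested.

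**Figure D2:**
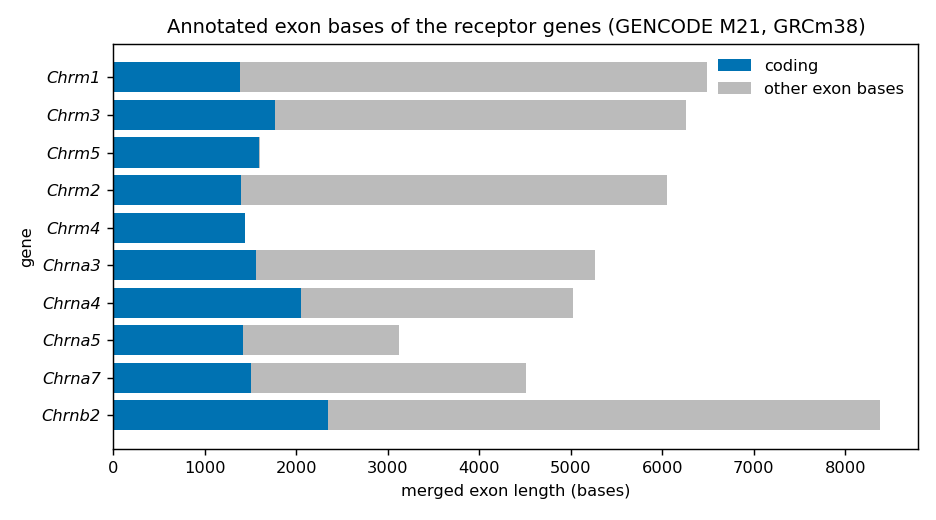
Merged exon bases of the 10 receptor genes in GENCODE M21 (horizontal axis, bases), split into bases that are coding in any transcript and other exon bases. Chrm4 and Chrm5 are coding throughout, and Chrnb2 is the longest at 8380 bases.

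Of the receptors that couple to Gi, Chrm2 was higher in TRAP and Chrm4 did not pass the test. Chrm2 (ENSMUSG00000045613), encoding the M2 receptor, which serves as an autoreceptor on cholinergic terminals and is also made by other neurons, lies at chr6:36388084-36528414 (plus strand). Its TRAP levels were 30.1, 33.1, 30.6 and 23.1 CPM. Its INPUT levels were 13.3, 9.77, 14.2 and 20.1 CPM. The fractions did not overlap, although VP2.11 had the lowest TRAP and the highest INPUT value and a log2 difference of only 0.20, against 1.11 to 1.76 in the other pools. In the same pool the INPUT level of Slc17a6 was also the highest of the 4 (39.4 CPM, against 14.4 to 26.3), and its part in the smaller difference was not tested.

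Chrm2 averaged 29.2 ± 4.28 CPM in TRAP and 14.3 ± 4.29 CPM in INPUT (SD, n = 4). The log2 difference was 1.06 (SE 0.22, adjusted p = 0.0029; with the block SE 0.28, adjusted p = 0.010), a 2.09-fold higher level with an interval of 1.38 to 3.16 under the block. Leaving out 1 pool at a time moved it between 0.83 and 1.35. The call held in 12 of 12 settings without the block and 9 of 10 with it, and was lost when libraries were rescaled to equal summed CPM and the pool was a block (0.86, adjusted p = 0.058). A non-coding RNA on the opposite strand, 9330158H04Rik, covers 2.35% of the exon bases of Chrm2. That RNA had the opposite sign (log2 difference -0.91, adjusted p = 0.029, or 0.109 with the block).

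Chrm4 (ENSMUSG00000040495), the M4 receptor gene, which striatal projection neurons of the direct pathway express strongly, lies at chr2:91927249-91928688 (plus strand). Its TRAP levels were 1.20, 1.67, 0.973 and 3.25 CPM, and its INPUT levels were 1.80, 1.33, 1.80 and 1.08 CPM. The fractions overlapped, and the single high value was TRAP VP2.11. The log2 difference was 0.11 (95% interval with the block -1.20 to 1.42, adjusted p = 0.843, or 0.907 with the block), and it turned to -0.38 without VP2.11, to -0.42 with quality weights on the libraries and to -0.087 with libraries scaled to equal summed CPM. At about 22 and 13 reads in the TRAP libraries of VP2.2 and VP2.6 and about 52 and 49 in their INPUT libraries, differences within this interval were not detectable.

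Among nicotinic subunit genes, that of alpha4 was called in every setting run, and that of beta2 in all but some with the block. No difference was detected for alpha3. Chrna4 (ENSMUSG00000027577, chr2:181018380-181043546, minus strand), encoding the alpha4 subunit, was the receptor gene with the largest log2 difference among the 8. In TRAP it stood at 22.1, 18.6, 23.1 and 20.4 CPM. In INPUT it stood at 7.31, 9.12, 8.45 and 12.7 CPM. All TRAP libraries lay above all INPUT libraries, with pool differences of 1.59, 1.03, 1.45 and 0.68 on the log2 scale. Chrna4 averaged 21.1 ± 1.99 CPM in TRAP and 9.40 ± 2.34 CPM in INPUT, a log2 difference of 1.19 (SE 0.19, adjusted p = 7.7e-04; with the block SE 0.27, adjusted p = 0.0046). The level was thus 2.28-fold higher, with an interval of 1.52 to 3.42 under the block. It was called in each of 12 settings without and 10 with the block, at log2 differences of 0.99 to 1.36.

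Chrnb2 (ENSMUSG00000027950, chr3:89746195-89764632, minus strand), encoding the beta2 subunit that pairs with alpha4, was also higher in TRAP. Its TRAP levels were 26.1, 26.1, 21.3 and 23.3 CPM, and its INPUT levels were 11.6, 10.7, 16.0 and 17.0 CPM. The fractions did not overlap, but VP2.6 and VP2.11 differed by 0.41 and 0.45 on the log2 scale where VP1.6 and VP2.2 differed by 1.17 and 1.29. The means were 24.2 ± 2.33 CPM and 13.8 ± 3.15 CPM, a log2 difference of 0.83 (SE 0.18, adjusted p = 0.0044; with the block SE 0.27, adjusted p = 0.027) or 1.78-fold, with an interval of 1.20 to 2.63. The call held in 12 of 12 settings without the block and 6 of 10 with it. Without VP1.6 or VP2.2 the blocked call was lost (0.72 and 0.68, adjusted p = 0.140 and 0.073).

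A part of the Chrnb2 exons, 1365 bases or 16.3%, is shared with exons of Adar on the opposite strand, which encodes an RNA-editing deaminase. Adar itself was higher in TRAP (188 ± 6.80 CPM against 113 ± 11.3 CPM, log2 difference 0.75, adjusted p = 7.6e-04, or 0.013 with the block). Only unambiguously placed reads were counted, and whether the counting used strand is not given in the sources used here. Without strand, a read in the shared bases would lie in both genes and would be left out as ambiguous. How far this changed the level of Chrnb2 was not tested. Chrnb2 also has the longest exons of the receptors, and log2 differences rose with exon length over all genes (Spearman 0.412 across genes, which are not independent). With the trend on exon length removed, the difference of Chrnb2 was 0.51 (adjusted p = 0.028, or 0.114 with the block), that of Chrm2 was 0.90, that of Chrna4 1.10, and that of the short Chrm5 model 1.18 (adjusted p = 0.0048, or 0.0495 with the block). In that blocked fit 32.0% of all genes were called, 15.8% higher and 16.3% lower.

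Chrna3 (ENSMUSG00000032303, chr9:55010111-55026562, minus strand), whose alpha3 subunit is typical of autonomic ganglia and the medial habenula, was the lowest of the receptor genes. TRAP stood at 1.02, 1.46, 1.53 and 0.648 CPM, and INPUT at 1.32, 0.972, 0.991 and 1.35 CPM. The fractions overlapped, with VP2.2 and VP2.6 higher in TRAP and the other pools lower. The log2 difference was -0.06 (95% interval with the block -1.49 to 1.37, adjusted p = 0.918, or 0.957 with the block), and its sign changed without VP1.6 (0.049) or VP2.11 (0.28), with quality weights (0.16) and with quantile normalization (0.87). About 19 and 21 reads in TRAP and 38 and 27 in INPUT of VP2.2 and VP2.6 lay behind these values. An effect the size of that of Chrna4 (1.19) lay within the interval with the block. It lay outside the interval without the block (-0.95 to 0.83).

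**Figure D3:**
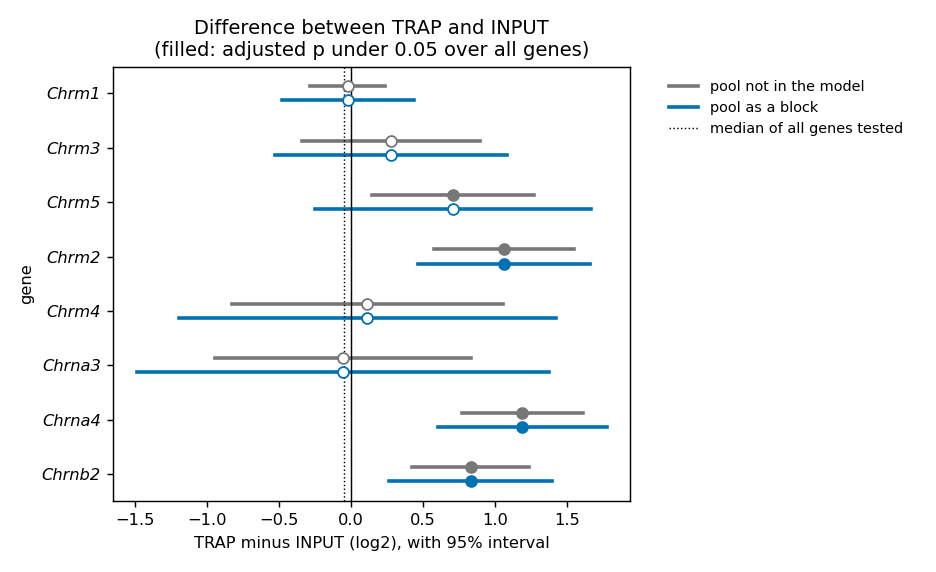
Log2 difference TRAP minus INPUT for each receptor gene (horizontal axis) with its 95% interval, from the model without the pool (grey) and with the pool as a block (blue); filled points passed an adjusted p under 0.05 over all genes tested, and the dotted line is the median of all genes. Intervals of Chrm2, Chrna4 and Chrnb2 lie above 0 in both models, and that of Chrm5 only without the block.

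The upstream sequences of the 3 receptor genes called with the block are shown as a description, and shared regulation was not tested. They come from RefSeq (GRCm38.p6), run 5′ to 3′ on the strand of the gene, and end at the first base that lies in an annotated exon of the gene or in the RefSeq gene beyond the GENCODE one. The regions are chr6:36387834-36387990 (plus) for Chrm2, chr2:181039306-181039427 (minus) for Chrna4 and chr3:89764633-89764882 (minus) for Chrnb2. That of Chrna4 precedes the start of 1 transcript and lies within an intron of a longer one. Capitals mark a GC box.
Chrm2: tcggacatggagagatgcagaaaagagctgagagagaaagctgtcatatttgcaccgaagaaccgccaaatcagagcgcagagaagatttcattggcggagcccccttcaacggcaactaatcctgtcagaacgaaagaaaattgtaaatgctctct
Chrna4: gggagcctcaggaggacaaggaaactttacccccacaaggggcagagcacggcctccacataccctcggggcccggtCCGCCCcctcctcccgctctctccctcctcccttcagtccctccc
Chrnb2: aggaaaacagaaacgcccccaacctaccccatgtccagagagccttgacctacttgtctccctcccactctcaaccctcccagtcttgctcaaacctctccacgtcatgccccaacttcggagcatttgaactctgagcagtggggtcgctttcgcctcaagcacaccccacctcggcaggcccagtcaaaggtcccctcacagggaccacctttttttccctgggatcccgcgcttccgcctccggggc
The GC share was 46.5% of 157 bases for Chrm2, 68.0% of 122 bases for Chrna4 and 59.6% of 250 bases for Chrnb2. The GC box (GGGCGG, either strand) was found once, upstream of Chrna4, and TATAAA was found in none of the 3 on either strand. Among 32851 RefSeq promoters, 13.1% held the GC box in a window of 122 bases, 17.6% in 157 and 32.7% in 250, and TATAAA was held by 6.12%, 7.55% and 12.4%. A match describes letters in a window and not a bound site.

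Levels of different receptor genes were compared as CPM per kilobase of exon. In TRAP the order was Chrm1 (8.05 ± 0.585 CPM per kb), Chrm2 (4.83 ± 0.707), Chrna4 (4.19 ± 0.397), Chrnb2 (2.89 ± 0.279), Chrm5 (2.17 ± 0.333), Chrm4 (1.23 ± 0.712), Chrm3 (0.983 ± 0.340) and Chrna3 (0.221 ± 0.0777), each as mean ± SD of 4 libraries. INPUT had the same order, from Chrm1 at 8.17 ± 0.408 CPM per kb to Chrna3 at 0.220 ± 0.0391. Neighbours in that order separated without overlap in TRAP for Chrm1 above Chrm2, Chrna4 above Chrnb2 and Chrm3 above Chrna3. The other neighbours in TRAP overlapped. In INPUT Chrm1 above Chrm2 and Chrm3 above Chrna3 separated without overlap, and the rest overlapped, so the shared order is not resolved in the middle. The place of Chrm3 depended on the length used. Per kilobase of the longest transcript it changed places with Chrm4 in both fractions, and in INPUT Chrnb2 (2.16 CPM per kb) passed Chrna4 (2.06). By that length Chrna4 and Chrnb2 also overlapped in TRAP (4.07 to 5.07 and 3.33 to 4.08 CPM per kb), so their separation there depended on the length used.

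**Figure D4:**
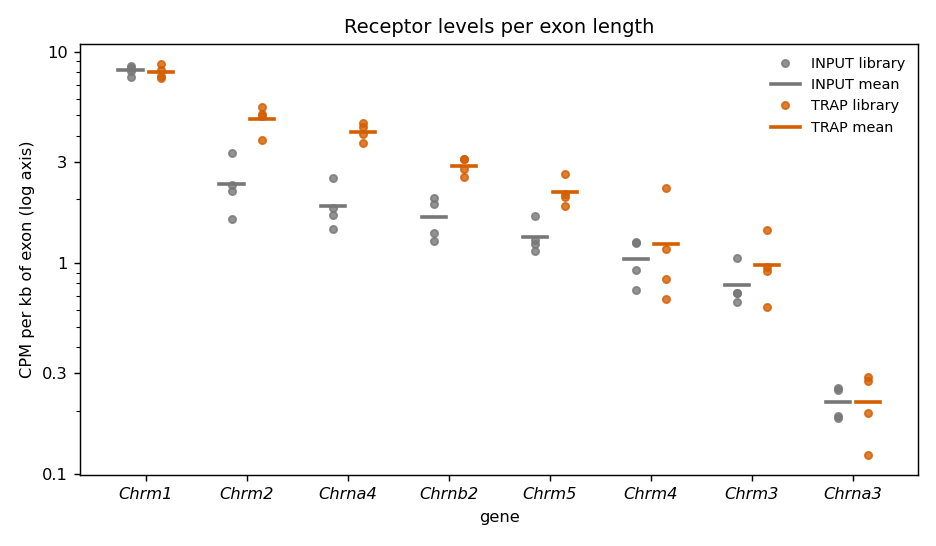
Level of each receptor gene in CPM per kilobase of merged exon (vertical axis, log scale) in the 4 INPUT (grey) and 4 TRAP (orange) libraries, with bars at the means. Chrm1 is highest in both fractions, at 8.17 in INPUT and 8.05 in TRAP, and Chrna3 is lowest, near 0.22 in both.

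The make-up of the muscarinic family per kilobase of exon is given as a description, without a test. Chrm1 made up 46.6 ± 2.92% of the summed muscarinic level in TRAP and 59.8 ± 3.71% in INPUT. Chrm2 made up 27.9 ± 3.59% in TRAP and 17.1 ± 3.97% in INPUT, and the 2 Gi-coupled genes together 33.7 to 37.0% in TRAP and 20.2 to 27.5% in INPUT. No TRAP library overlapped with INPUT in that summed share, and VP2.11 was the INPUT library nearest to TRAP. Within VP2.11 the share of Chrm2 was close in the fractions (22.7% in TRAP, 22.4% in INPUT). The summed share of that pool differed mainly through Chrm4 (13.4% and 5.05%), which rests on few reads. The shares of Chrm3 (5.72% in TRAP, 5.78% in INPUT) and Chrm4 (7.17% and 7.66%) were close, each within 1 SD. Chrm5 took 12.6 ± 2.01% in TRAP and 9.69 ± 1.33% in INPUT.

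Differences between 2 receptor genes within a library do not depend on how libraries were scaled, and 3 of them were compared between fractions by a two-sided exact permutation test over the 8 libraries. Chrm1 exceeded Chrm3 by 3.15 ± 0.59 on the log2 CPM scale in TRAP and by 3.45 ± 0.36 in INPUT, and no difference was detected (difference -0.30, exact p = 0.40, adjusted p = 0.40). Chrm2 exceeded Chrm4 by 4.19 ± 0.95 in TRAP and 3.24 ± 0.66 in INPUT. That difference of 0.95 was positive in 3 of 4 pools and did not pass (exact p = 0.171, adjusted p = 0.257). In VP2.11 alone the order was the other way, 2.83 in TRAP and 4.22 in INPUT. Chrna4 minus Chrnb2 was -0.20 ± 0.25 in TRAP and -0.56 ± 0.30 in INPUT on the same scale, and the change of 0.36 did not pass either (exact p = 0.171, adjusted p = 0.257). The genes of the alpha4 and beta2 subunits were thus each higher in TRAP, with no change of one relative to the other detected at 4 libraries a fraction.

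Of 11 other nicotinic subunit genes, 2 had values, and neither was called. Chrna2 averaged 2.80 ± 2.16 CPM in TRAP and 3.00 ± 1.03 CPM in INPUT, with TRAP VP2.11 at 0.172 CPM and the other TRAP libraries at 2.73 to 5.45 CPM. Chrnb1, known from the muscle receptor, stood at 1.46 ± 0.911 CPM and 0.893 ± 0.446 CPM. Of 8 genes whose products help nicotinic receptors assemble or bind to them, 2 were higher and 1 lower, with and without the block, beside 23.2% of all genes higher and 24.8% lower (15.4% and 16.8% with the block). Ric3 and Tmem35a, endoplasmic reticulum chaperones that favour nicotinic receptor assembly, rose by 1.01 (adjusted p = 0.0020, or 0.0093 with the block) and 0.69 (0.0044, or 0.030). Lypd6, a Ly6-type protein of the family that modulates nicotinic receptors, fell by 0.97 (adjusted p = 0.020, or 0.026). The call of Lypd6 was lost without VP1.6 (adjusted p = 0.060, or 0.056 with the block), without VP2.6 (0.098, or 0.092) and, with the block only, without VP2.11 (log2 difference -0.66, adjusted p = 0.118). That of Tmem35a was lost with the block without VP1.6, VP2.6 or VP2.11 (adjusted p = 0.214, 0.116 and 0.059). The median log2 difference of the 8 was -0.09.

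Of 6 genes of acetylcholine synthesis and breakdown tested, 2 were higher and 2 lower, or 1 and 2 with the block, which can be read against the same shares of all genes (23.2% and 24.8%, or 15.4% and 16.8%). Ache, encoding the enzyme that breaks down acetylcholine, rose by 1.00 (46.1 ± 17.0 CPM in TRAP, 22.1 ± 1.26 CPM in INPUT, adjusted p = 0.0033, or 0.0077 with the block). Slc18a3, the vesicular acetylcholine transporter gene, fell by 1.75 (2.37 ± 1.96 CPM against 6.62 ± 1.61 CPM, adjusted p = 0.0086, or 0.013), and Prima1, which anchors the esterase, by 1.68 (adjusted p = 0.033, or 0.041). The call of Slc18a3 was lost without VP1.6 (adjusted p = 0.069, or 0.085 with the block) and, in the model without the block, without VP2.6 (adjusted p = 0.055). Prima1 was higher in TRAP in VP2.11 (log2 difference 0.72) and lower in the other pools (-1.91 to -2.83), and the fractions overlapped. The call of Prima1 was lost without VP1.6, VP2.2 or VP2.6 (adjusted p = 0.176, 0.125 and 0.153, or 0.168, 0.118 and 0.143 with the block), with the exon length trend removed (log2 difference -1.11, adjusted p = 0.115, or 0.137) and with quantile normalization (-1.26, adjusted p = 0.057, or 0.084). Chat, the synthesizing enzyme, named here after its values were seen, stood at 59.2 ± 12.9 CPM in TRAP and 37.0 ± 11.0 CPM in INPUT (log2 difference 0.70, adjusted p = 0.034, or 0.066 with the block). As a list, 8 markers of cholinergic neurons had 1 gene higher and 4 lower (0 and 4 with the block), and their summed level overlapped between TRAP (114 to 173 CPM) and INPUT (111 to 172 CPM). Those lower in both models were Slc18a3 and the transcription factor genes Lhx8 (log2 difference -2.09), Isl1 (-1.75) and Gbx1 (-1.61). Their part in the values of Chrm2, a receptor of cholinergic terminals, was not tested.

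Downstream of the receptors, the Gq list had 5 of 10 tested genes higher and 1 lower, or 3 and 0 with the block, where 23.2% of all genes were higher and 24.8% lower (15.4% and 16.8% with the block). Its median log2 difference was 0.41. Plcb4 and Plcb1, phospholipase C isoforms that Gq activates, rose by 1.91 (adjusted p = 2.0e-04, or 8.5e-05 with the block) and 1.62 (2.6e-04, or 2.4e-04), and Prkca, a protein kinase C gene, rose by 1.62 (6.0e-04, or 4.7e-04). The gene lower without the block was Gna11, which encodes a G protein alpha subunit of the Gq family and is named after its values were seen (log2 difference -0.64, adjusted p = 0.021, or 0.057 with the block). The Gi list had 3 of 11 genes higher and 2 lower in both models, to be read against the same shares, with a median of -0.06. Kcnj9 and Kcnj3, subunits of the potassium channels that Gi opens, rose by 1.35 (adjusted p = 5.6e-04, or 0.0025) and 1.09 (0.0032, or 0.0074). Adcy1, an adenylyl cyclase gene, rose by 0.88 (adjusted p = 0.026, or 0.039), a call lost without VP1.6 (adjusted p = 0.103, or 0.091 with the block), without VP2.2 (0.45, adjusted p = 0.066, or 0.162) and, in the model without the block, without VP2.6 (adjusted p = 0.064). It was also lost with the exon length trend removed (0.41, adjusted p = 0.163, or 0.231) and with equal summed CPM (0.68, adjusted p = 0.123, or 0.170). Adcy5, the main striatal adenylyl cyclase, fell by 1.04 (adjusted p = 0.0012, or 0.0039), beside the lower striatal markers given above, whose part in it was not tested. The fifth gene called in this list, Gnai2, fell by 0.75 (adjusted p = 0.0020, or 0.018) and is named after its values were seen.

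**Figure D5:**
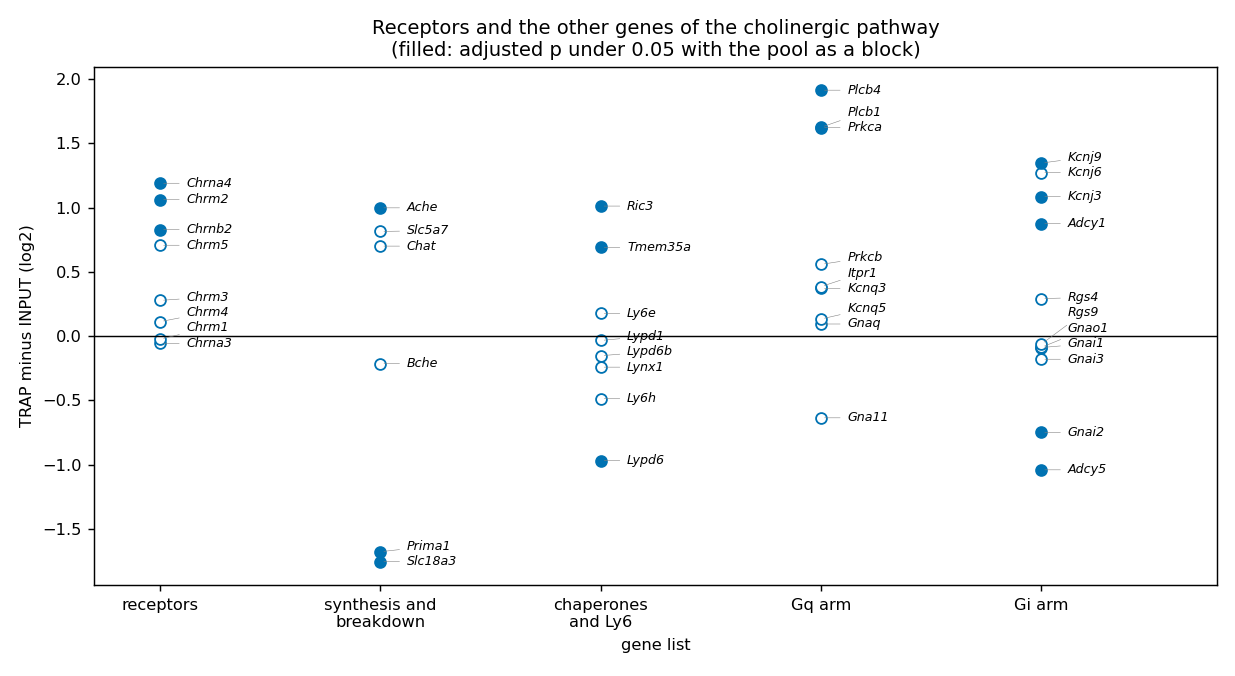
Log2 difference TRAP minus INPUT (vertical axis) of the 8 receptor genes and of the genes in 4 pathway lists, with 1 column per list; filled points passed an adjusted p under 0.05 with the pool as a block. The highest points are Plcb4 at 1.91 and Plcb1 and Prkca at 1.62, and the lowest are Slc18a3 at -1.75 and Prima1 at -1.68.

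Other marker lists also differed between the fractions. Their counts can be read against all genes tested, of which 23.2% were higher and 24.8% lower in TRAP (15.4% and 16.8% with the block). Of 7 markers of thalamus and habenula, 4 were higher and 1 lower in TRAP (3 and 1 with the block), with summed levels of 489 to 638 CPM in TRAP and 200 to 258 CPM in INPUT. Nwd2 (2.38), Rora (1.66) and Tcf7l2 (1.31) had positive and Tac2 (-2.12) had negative log2 differences that passed in both models. Markers of GABA neurons (3 of 5 lower, summed 1018 to 1693 CPM in TRAP and 1073 to 1781 CPM in INPUT), astrocytes (4 of 5 lower, 150 to 253 against 343 to 502 CPM), oligodendrocytes (4 of 5 lower, 900 to 1631 against 3506 to 3806 CPM) and microglia (5 of 5 lower, or 3 with the block, 23.7 to 31.8 against 78.8 to 126 CPM) were mostly lower. The fifth oligodendrocyte marker, Mag, was higher without the block (log2 difference 0.61, adjusted p = 0.035, or 0.072 with the block). Of 4 endothelial and mural markers with values, Flt1 was higher (2.37) and Acta2 lower (-2.38) in both models, and their summed level overlapped (9.65 to 33.7 CPM in TRAP, 10.7 to 14.6 CPM in INPUT). No listed marker was under 1 CPM in all TRAP libraries, and the part of these cells in the receptor values was not tested.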

How the data were processed

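Ribosome-bound (TRAP) and whole-lysate (INPUT) mRNA of 4 VP pools was sequenced. The authors aligned reads with STAR 2.5.1a to an Ensembl mouse assembly, counted uniquely placed unambiguous reads per gene with featureCounts, scaled libraries by TMM in edgeR and fitted limma with voom and quality weights. What the authors deposited for each library is log2 CPM. Their table also holds the authors' own comparison (log2 fold changes with limits, raw and adjusted p-values, linear fold changes), which was not used here.

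The table had 14398 entries, and leaving out 45 repeats gave 14353 genes. Those that exceeded 1 CPM in 3 libraries or more (14249) were compared on the log2 values with limma 3.58.1 (eBayes with a trend) in R 4.3.3, with Benjamini-Hochberg adjustment over all of them. Fractions were compared without the pool, as in the study's methods, and with the pool as a block. TRAP and INPUT of 1 pool came from the same animals, so pools pair the libraries. Deviations from the fraction means correlated at -0.49 to -0.75 within a pool and at 0.05 to 0.44 between pools. TRAP and INPUT of a pool thus deviated in opposite directions, for a reason that was not tested. The model without the pool takes the libraries as independent, so its p-values may be too small. Values of the log2 scale were turned to CPM for means and SDs. Depth was estimated from steps of whole reads at about 13.0 (TRAP) and 39.3 (INPUT) M reads in VP2.2 and 13.6 and 27.1 M in VP2.6. It is unknown in VP1.6 and VP2.11, where at least 1 library was rounded to 3 significant digits. Approximate reads cover counting only. Fits and depth estimates were tested on simulated data.

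Receptors and lists were chosen with earlier results of these data known. All receptor genes with values are named. From each pathway list up to 4 genes called with the block, largest difference first, are named, with exceptions stated. Marker lists are given by counts, with single markers named where a count of few genes or a receptor result turned on them. Of the Gq list, 1 gene is not reported here by name or drawn. Positions and exon lengths are from GENCODE M21 (GRCm38), which may differ from the gene models used by the authors for counting. Alternatives changed filter, scaling, weights, log offset, exon length trend and the pools used. Of these, 3 combined with the block (quantile normalization, equal summed CPM and log2(CPM + 1)) and were added after seeing the data.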

Additional observations from a re-analysis of the deposited data

Results flagged for a closer look

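Both fractions of 44 receptor and pathway genes were examined for a library far from the other 3, in 88 groups of 4 libraries. In 7 groups the gap to the nearest library was above Dixon's critical value for 4 samples, where about 4.4 of 88 would be by chance alone.

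Among them, 4 were low values in INPUT VP2.2. There Prkcb, a protein kinase C gene, stood at 7.99 log2 CPM (8.85 to 8.88 in the other INPUT libraries), Kcnq3, a potassium channel gene, at 4.94 (5.92 to 6.02), Slc5a7, the choline transporter gene, at 3.42 (4.82 to 5.03) and Gnai1, a Gi alpha subunit gene, at 6.55 (6.79 to 6.83). Prkcb was also apart in TRAP of the same pool, at 9.47 log2 CPM with the other TRAP libraries at 9.12 (gap 0.990 of the range). Ache, the acetylcholine-degrading enzyme, stood at 6.16 log2 CPM in TRAP VP2.11 (5.21 to 5.28 in the rest of TRAP), and Lynx1, a Ly6-type protein that binds nicotinic receptors, at 6.79 in INPUT VP1.6 (7.11 to 7.17 in the rest of INPUT). None of the 8 receptor genes had such a library.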

How the results depend on the processing

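Chrna4 was called in every setting run, and Chrm1, Chrm3, Chrm4 and Chrna3 in none. With the pool as a replicate block, the log2 difference of Chrm5 stayed 0.71 but was not called (adjusted p = 0.244), nor was it with quality weights and the block (0.86), quantile normalization and the block (1.12) or log2(CPM + 1) and the block (0.51). Equal summed CPM, which lowered the median of all genes by 0.20 on the log2 scale, left Chrm5 at 0.51 with and without the block, not called, and with the block also Chrm2 at 0.86 and Chrnb2 at 0.63, not called. With the block it gave 4228 genes called in all, 1 receptor gene and 11 pathway genes, against 6830, 4 and 18 without the block or rescaling, and 4592, 3 and 14 with the block alone. Chrnb2 was at 0.51, not called, with the exon length trend removed and the block. The sign of Chrm4 turned with quality weights (-0.42, or -0.32 with the block) and equal summed CPM (-0.087), and that of Chrna3 with quality weights (0.16, or 0.046 with the block) and quantile normalization (0.87). The cause was not tested.

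Leaving out 1 pool at a time, with or without the block, gave 3206 to 6887 genes called in all (lowest without VP1.6), 2 to 4 receptor genes higher and 9 to 19 pathway genes called, and log2 differences of -0.10 to 0.022 for Chrm1, -0.38 to 0.45 for Chrm4, -0.28 to 0.28 for Chrna3, 0.54 to 0.89 for Chrm5, 0.83 to 1.35 for Chrm2, 0.040 to 0.63 for Chrm3 and 0.68 to 0.97 for Chrnb2. Ranks by longest transcript matched those by exon length for 4 of 8 genes in INPUT and 6 of 8 in TRAP. With the pool as a block, the 3 contrasts between receptor genes gave exact sign-flip p-values of 0.25 to 0.50, where 4 pools cannot go below 0.125. Of the receptor calls made without the block, under no other change of setting, the block turned that of Chrm5; under other settings it also turned that of Chrnb2 (without VP1.6 or VP2.2, with the exon length trend removed and with equal summed CPM) and that of Chrm2 (equal summed CPM). Of the pathway genes named, equal summed CPM with the block also left Ric3, Tmem35a and Kcnj3 not called (adjusted p = 0.060, 0.118 and 0.052). Chrm4 and Chrna3 rest on few reads, and the depth of VP1.6 and VP2.11 is unknown.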
